A study of Mus musculus with 6 samples.

Results

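The 78 nuclear genes named Mrpl or Mrps, which code for the proteins of the mitochondrial ribosome, were examined in PPARγ2 K382Q- and K382R-overexpressing mouse cells during beige adipocyte differentiation. They were taken by symbol alone, as every gene whose name starts with Mrpl or Mrps and a number, without the 6 pseudogenes marked -ps, and they are 49 large subunit (Mrpl) and 29 small subunit (Mrps) genes of 56884 gene IDs. All 78 passed the filter on low values, a TPM (a transcript share scaled to the same total in each library) of 0.5 or more in 3 or more libraries, which left 15426 genes to test. Both groups were immortalized stromal vascular cells of mouse subcutaneous white fat that carried a retroviral PPARγ2 and had been selected with puromycin as stable lines. The K382Q mutant mimics the receptor acetylated at lysine K382, and the K382R mutant mimics the deacetylated receptor. Both groups received the same induction medium with isobutylmethylxanthine, indomethacin, dexamethasone, insulin, T3 and rosiglitazone, and were harvested on day 2 with 3 biological replicates each. Cells with wild-type receptor or empty vector are not part of this comparison, so each value below sets one mutant against the other.

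The mitochondrial ribosome translates the mRNAs of the mitochondrial genome, all of which code for subunits of the respiratory chain and ATP synthase. Its 2 rRNAs come from the mitochondrial genome, whereas its proteins are coded in the nucleus, made in the cytosol and imported. The large subunit joins amino acids and the small subunit reads the mRNA. Many of these proteins have a bacterial counterpart, and others were added during the evolution of mitochondria. Brown and beige adipocytes are rich in mitochondria, which is why the supply of this machinery is of interest in browning.

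The libraries held 5.95 to 8.15 Gb of aligned bases and 22663 to 23837 genes with a TPM above 0. The first principal component, with 61.3% of the variance, set K382Q apart from K382R. Over all genes tested, the median log2 fold change was -0.14 on TPM, so a gene at 0 on this scale lay above the typical gene. Summed TPM of the 13 mitochondrial mRNAs, which enters the total that TPM is scaled to, was 39481 ± 4329 (SD, n = 3) in K382Q- and 24874 ± 539 in K382R-overexpressing cells. Pparg, whose reads include the transgene, was at 1104 to 1333 TPM with K382Q and 1590 to 1632 TPM with K382R. The 6 adipocyte markers did not move together, since mean Fabp4 was higher with K382Q, whereas the means of Adipoq (148.1 TPM against 360.0 TPM), Cebpa (179.1 TPM against 315.2 TPM), Pparg, Lpl and Plin1 were lower. Their sum, mostly Fabp4, ranged from 50210 to 53860 TPM against 42090 to 43220 TPM, and that of stromal precursor markers from 506.5 to 550.0 TPM against 861.2 to 898.5 TPM. Among the precursor markers, Cd34 and Dlk1 were below 1 TPM in every library. Of 7 leukocyte markers 6 stayed below 0.5 TPM, with Adgre1 and Cd3e at 0, as did 3 of 4 endothelial markers. The muscle markers Myod1 and Myog were at 0, whereas Des was at 4.51, 5.46 and 5.04 TPM with K382Q and 3.57, 3.25 and 2.78 TPM with K382R. The part of these marker differences in the results below was not tested.

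Most mitoribosomal protein genes were well expressed, and their levels differed more between genes than between libraries. Their median was 80.2 TPM, which is the 83rd percentile of protein-coding genes tested, and it was 89.5 TPM for the large and 66.5 TPM for the small subunit. TPM is a level per transcript length, so genes can be set side by side on it. The range from the lowest to the highest gene was 17.4-fold, and the lowest gene was at the 44th percentile of protein-coding genes. The median coefficient of variation was 3.75% for the members and 4.98% for protein-coding genes.

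The highest member was Mrps21, a small subunit protein with a bacterial counterpart, with 289.7, 305.1 and 333.3 TPM in K382Q- and 300.8, 296.3 and 287.6 TPM in K382R-overexpressing cells. Mrpl12 codes for a protein of the stalk that draws translation factors to the large subunit and was close behind, with 285.4, 306.1 and 302.2 TPM against 304.2, 296.3 and 292.3 TPM. Mrpl13 was at 295.6, 277.4 and 279.7 TPM against 294.1, 284.5 and 291.7 TPM. The groups overlapped for all 3 of these genes, and their order cannot be told apart from the spread. At the low end, Mrpl19 averaged 17.4 TPM, Mrps35 18.7 TPM, Mrps25 20.9 TPM and Mrpl17 21.9 TPM.

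**Figure D1:**
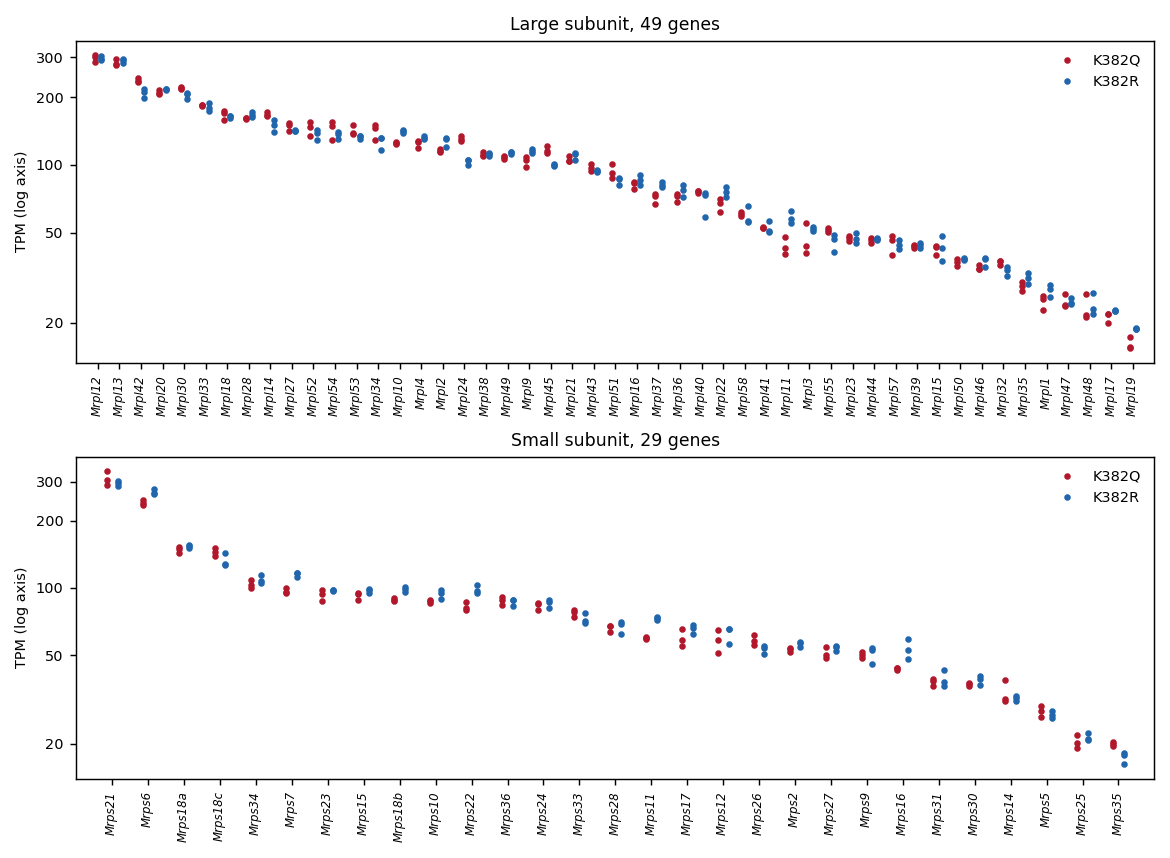
TPM (log axis) of each mitoribosomal protein gene in the 3 K382Q (red) and 3 K382R (blue) libraries, ordered by mean level, 1 point per library, with the large subunit above and the small subunit below. Levels run from 17.4 TPM for Mrpl19 to 302.1 TPM for Mrps21, and for most genes the distance between the mutants is small beside the range between genes.

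Between the mutants, most of these genes stayed close to level. With limma on log2(TPM + 0.5) and Benjamini-Hochberg adjustment over all genes tested, 6 members were higher in K382Q-overexpressing cells and 14 were lower at an adjusted p below 0.05, and 58 were not called. The share called was 25.6%, beside 48.1% of all genes tested. Over all genes, 11.1% were called higher and 36.9% lower, and over the members 7.69% and 17.9%. With a trend over transcript length removed, 27 members (34.6%) were lower beside 34.6% of all genes, so the smaller share lower among the members did not hold in that fit. The smaller share higher did not hold there either (12.8% beside 11.4%). Nor did it hold without K382Q replicate 1 (14.1% beside 9.94%), without a filter on low values (6.41% beside 4.86%) or under the other scalings below. In the large subunit 5 genes rose, 7 fell and 37 did not pass, with a median log2 fold change of -0.02. In the small subunit 1 gene rose, 7 fell and 21 did not pass, with a median of -0.07. The TPM of the mutants did not overlap for 20 large and 10 small subunit genes, 30 of 78, beside 57% of all genes tested. Of the members, 62 of 78 lay above the all-gene median of -0.14. So did 72 of 81 cytosolic ribosomal protein genes, 14 of 19 mitochondrial translation factors and 19 of 27 genes for mitoribosome assembly and rRNA modification.

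No member reached a fold change over 2 at an adjusted p below 0.05 in limma, a threshold that 3.88% of all genes passed. At an unadjusted p below 0.05 in limma there were 26 members, 10 higher (12.8%) and 16 lower (20.5%), beside 13.1% and 41.1% of all genes. A 1.5-fold change was exceeded by 0 members and by 13.6% of all genes. The 95% interval of the fold change lay within 1.5-fold either way for 78 of 78 members. These intervals bound the size of the differences on the TPM scale.

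**Figure D2:**
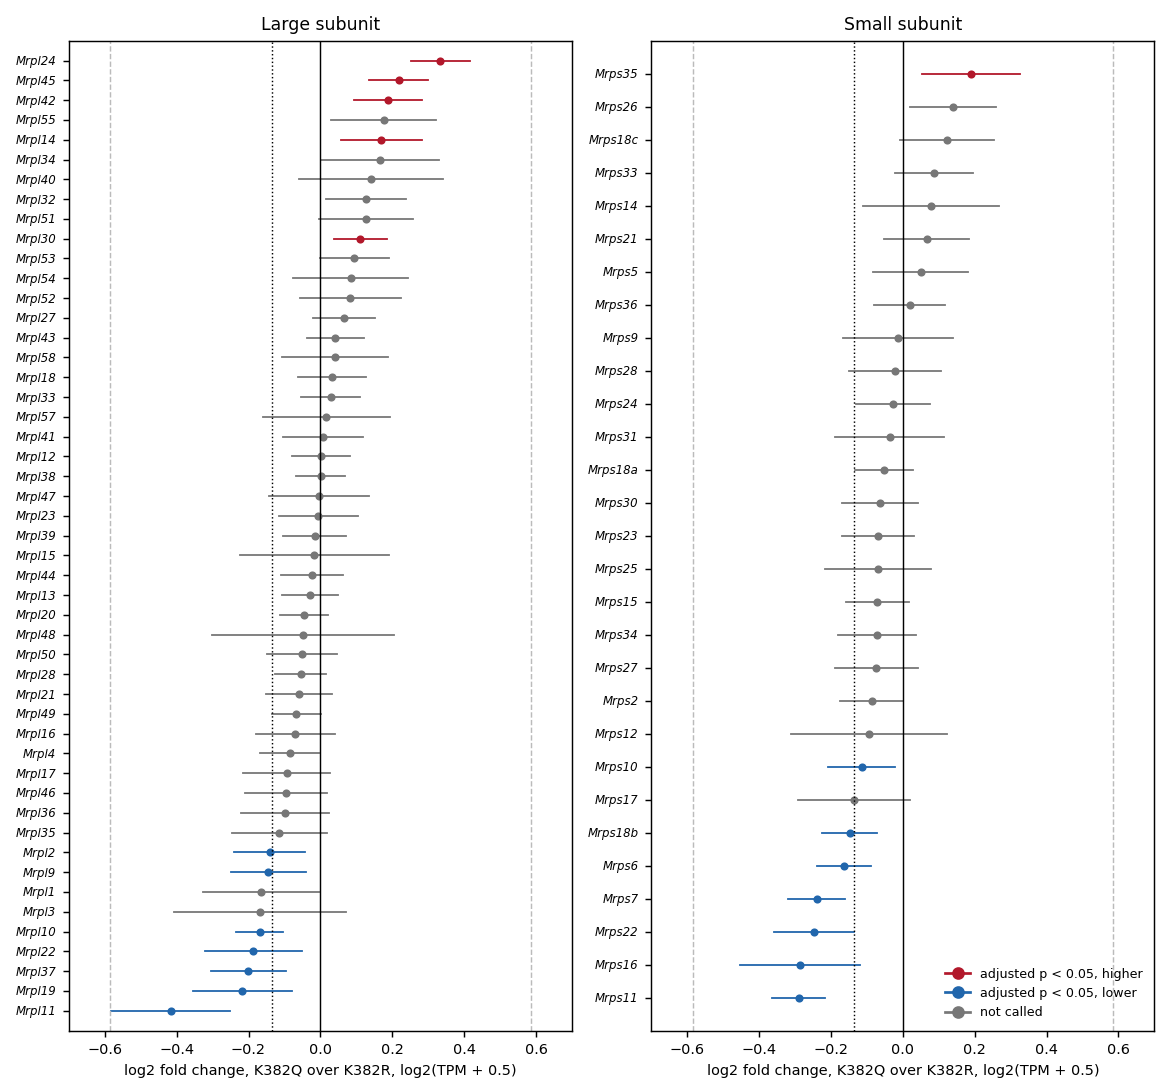
Log2 fold change of each gene, K382Q over K382R, on log2(TPM + 0.5) with its 95% interval from limma, 3 libraries per mutant. The solid line marks 0, the dotted line the median of all genes tested (-0.14) and the dashed lines a 1.5-fold change. Every interval lies between the dashed lines, with 6 genes called higher (red) and 14 called lower (blue).

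The count of members in each direction depended on how the libraries were scaled. On FPKM (fragments per transcript length and library size), 14 large subunit genes were higher and 2 lower, and 5 small subunit genes were higher and 4 lower, beside 17.3% higher and 30.2% lower of all genes. Median-ratio scaling, which sets the typical gene to no change, gave 25 higher and 1 lower in the large and 8 higher and 1 lower in the small subunit, beside 19.9% and 20.4% of all genes. Quantile normalization gave 21 higher and 1 lower in the large and 8 higher and 2 lower in the small subunit, beside 19.1% and 21% of all genes. The large subunit median was 0.07, 0.13 and 0.13 on these 3 scales, and the small subunit median was 0.01, 0.08 and 0.09. The median of all genes tested moved as well, from -0.14 on TPM to -0.06 on FPKM and to 0.00 after both median-ratio scaling and quantile normalization, so the change of sign of the subunit medians came with a shift of all genes. Both subunit medians lay above the all-gene median on TPM, and also on these 3 scales. FPKM and median-ratio scaling apply a factor to each library and shift all genes nearly alike. That the medians lay above it on those scales too was therefore nearly fixed by the result on TPM and adds no support. No member was called in opposite directions by any 2 of the 4 scalings, and 16 large and 14 small subunit genes were called by none. These 30 are 38.5% of the members, beside 36.2% of the 13419 genes tested on all 4 scales. With the length trend removed, Mrpl13, Mrpl20, Mrpl23, Mrpl28 and Mrpl33 were called lower, although at least 1 scaling called each of them higher.

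**Figure D3:**
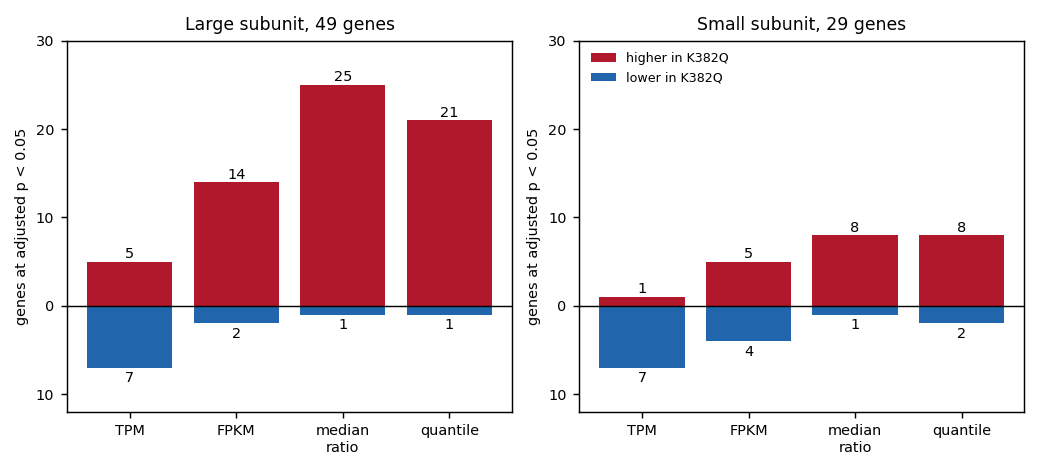
Number of large (left) and small (right) subunit genes at an adjusted p below 0.05, higher (red, upward) or lower (blue, downward) in K382Q-overexpressing cells, under 4 scalings of the same libraries. Large subunit genes went from 5 higher and 7 lower on TPM to 25 higher and 1 lower after median-ratio scaling.

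There were 8 members called in the same direction under all 4 scalings, 6 of them higher (7.69%) and 2 lower (2.56%). Of the 13419 genes tested on all 4 scales, 11.8% were higher and 21.7% lower in all, so both shares of the members were smaller. The 4 scalings are not independent checks, because FPKM and median-ratio scaling shift all genes nearly alike. The 6 higher members were those called higher on TPM, and the 2 lower members were those called lower after median-ratio scaling. Mrpl24, a large subunit protein with a bacterial counterpart, was at 133.9, 130.7 and 127.9 TPM in K382Q-overexpressing cells. It was at 105.6, 99.98 and 105.7 TPM in K382R-overexpressing cells. Every K382Q library lay above every K382R library, and the log2 fold change was 0.33 ± 0.04 (SE, adjusted p = 0.000177, limma). This was the largest rise among the members on TPM. In the GRCm39 coordinates of the tables, Mrpl24 lies at chr3:87826813-87830979, plus strand, and the other firm calls lie at chr11:97206542-97220746, plus strand (Mrpl45), chr19:5012175-5017027, plus strand (Mrpl11) and chr7:78432867-78442737, plus strand (Mrps11). The members are spread over the genome, with 11 on chromosome 11, 8 on chromosome 17 and 7 on chromosome 6.

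Mrpl45, a mitochondria-specific protein near the exit of the peptide tunnel, was at 113.2, 121.3 and 115.3 TPM with K382Q and at 100.0, 101.3 and 99.27 TPM with K382R. The groups did not overlap, with a log2 fold change of 0.22 ± 0.03 (SE, adjusted p = 0.00145, limma). Mrpl42, also specific to mitochondria, was at 243.6, 236.4 and 233.6 TPM against 217.5, 211.3 and 197.6 TPM. Its log2 fold change was 0.19 ± 0.04 (SE, adjusted p = 0.00614, limma), and all K382Q libraries were the higher ones. Removal of a trend with transcript length brought Mrpl42 to 0.07 (adjusted p = 0.268, limma).

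Mrpl14 is at the face of the large subunit that meets the small one, and it was at 164.7, 171.9 and 167.1 TPM against 158.7, 150.3 and 139.3 TPM. Mrpl30 was at 217.9, 220.4 and 222.2 TPM against 196.7, 206.1 and 208.8 TPM. Mrps35, among the lowest members, was at 19.49, 19.96 and 20.35 TPM against 17.91, 18.15 and 16.24 TPM. The K382Q libraries were above the K382R libraries for all 3 genes, with log2 fold changes of 0.17, 0.11 and 0.19 and limma adjusted p-values of 0.0219, 0.0207 and 0.0288. These 3 calls were less firm, since of the 6 fits that each left out a library, 2 kept the call of Mrpl14, 4 that of Mrpl30 and 3 that of Mrps35. Mrpl14 lost it without replicate 2 or 3 of either mutant, Mrpl30 without K382Q replicate 3 or K382R replicate 1, and Mrps35 without K382Q replicate 2 or 3 or K382R replicate 3. Without K382R replicate 3 the adjusted p was 0.0526 for Mrpl14 and 0.0855 for Mrps35, and without K382R replicate 1 it was 0.0776 for Mrpl30.

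Mrpl11 codes for a protein at the site where the large subunit activates the GTPases of translation. It was at 40.30, 42.69 and 47.75 TPM in K382Q-overexpressing cells and at 62.31, 57.47 and 55.09 TPM in K382R-overexpressing cells. The groups did not overlap, and the log2 fold change of -0.42 ± 0.07 (SE, adjusted p = 0.00194, limma) was the largest fall of any member. Mrps11, on the platform of the small subunit, was at 60.38, 59.73 and 59.11 TPM against 72.12, 74.20 and 73.11 TPM, a log2 fold change of -0.29 ± 0.03 (SE, adjusted p = 0.000204, limma). Mrpl24, Mrpl45, Mrpl11 and Mrps11 kept their call under all 19 alternative settings.

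**Figure D4:**
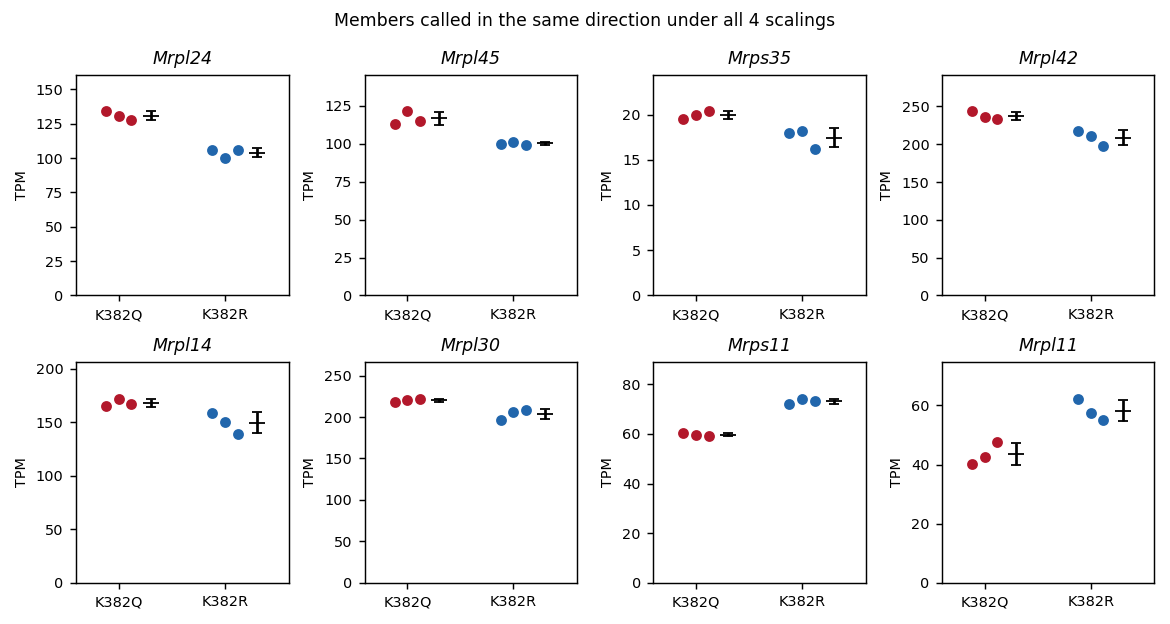
TPM of the 8 members called in the same direction under all 4 scalings, 1 point per library, with the mean and SD of each mutant beside the points (n = 3). For Mrpl11 and Mrps11 all K382Q points lie below the K382R points, and for the other 6 genes they lie above.

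The remaining falls on TPM were called under some scalings and not under others. In the small subunit, Mrps16 was at 42.69, 43.99 and 43.63 TPM against 59.35, 47.94 and 52.56 TPM, and Mrps22 at 81.06, 86.94 and 79.84 TPM against 96.51, 94.54 and 103.4 TPM. Mrps7, a protein of the head that contacts mRNA and tRNA, was at 95.15, 96.44 and 100.4 TPM against 116.2, 112.4 and 116.4 TPM. The groups did not overlap for these 3 genes, with log2 fold changes of -0.29, -0.25 and -0.24 on TPM and of -0.14, -0.10 and -0.09 after median-ratio scaling. Mrps6 (-0.16), Mrps18b (-0.15) and Mrps10 (-0.11) also fell on TPM, and after median-ratio scaling they were at -0.01, 0.00 and 0.04. Mrps10 kept its call only without K382R replicate 3, and the other 6 falls of the small subunit, Mrps11 included, kept theirs whichever library was left out.

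In the large subunit Mrpl10, which anchors the stalk, was at 123.5, 126.5 and 125.3 TPM against 141.3, 142.5 and 138.7 TPM. Its log2 fold change was -0.17 (adjusted p = 0.00173, limma) on TPM and -0.02 after median-ratio scaling. Mrpl19 (-0.22), Mrpl37 (-0.20), Mrpl22 (-0.19), Mrpl9 (-0.14) and Mrpl2 (-0.14) fell on TPM as well. After median-ratio scaling these 5 lay between -0.07 and 0.01. Mrpl22, Mrpl9 and Mrpl2 each kept the call in 2 of the 6 fits that left out a library, and Mrpl19 in 4. Mrpl22 kept it without K382Q replicate 3 or K382R replicate 1, Mrpl9 without K382Q replicate 1 or 2, Mrpl2 without K382Q replicate 1 or K382R replicate 3, and Mrpl19 lost it without K382Q replicate 3 or K382R replicate 1.

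Several members with a role of their own were not called on TPM. Mrpl12 had a log2 fold change of 0.00 and Mrpl38 of 0.00, and after median-ratio scaling Mrpl38 was called higher (0.15, adjusted p = 0.00595, limma). Mrpl58, a peptidyl-tRNA hydrolase that frees stalled ribosomes, was at 59.52, 62.12 and 60.67 TPM against 65.58, 55.67 and 56.48 TPM. Mrpl44, which has a fold related to RNase III, was at 44.87, 47.50 and 46.45 TPM against 47.35, 47.17 and 46.64 TPM. Mrps12, which takes part in decoding, was at 51.38, 65.0 and 58.62 TPM against 65.23, 65.32 and 55.98 TPM. The groups overlapped for all of these. The 3 Mrps18 paralogues had log2 fold changes of -0.05 (Mrps18a), -0.15 (Mrps18b) and 0.12 (Mrps18c), of which the second alone passed the test on TPM. On FPKM, after median-ratio scaling and after quantile normalization this turned, and Mrps18c was called higher (adjusted p = 0.0152, 0.00553 and 0.0144, limma) while Mrps18b was not called. Mrps36, known also as a subunit of 2-oxoglutarate dehydrogenase, was at 0.02 and was called higher after median-ratio scaling (0.17, adjusted p = 0.0122, limma).

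Members with a bacterial counterpart and those without were described apart. Of 29 large subunit genes with a counterpart 3 rose and 6 fell on TPM (median -0.06), and of 19 without 2 rose and 1 fell (median 0.02). Of 17 small subunit genes with a counterpart 0 rose and 6 fell (median -0.09), and of 10 without 1 rose and 1 fell (median -0.07), also on TPM. After median-ratio scaling 12 large subunit genes with a counterpart were higher and 1 lower, and of those without 12 were higher and 0 lower. In the small subunit 4 with a counterpart were then higher and 1 lower, and of those without 3 were higher and 0 lower. On that scale 19.9% of all genes were higher and 20.4% lower. The 3 members Mrpl55, Mrps28 and Mrps36 were left out of this split. On TPM the 35.3% lower among small subunit genes with a counterpart was near the 36.9% of all genes, and the shares lower in the other 3 classes, 5.26% to 20.7%, were below it. With the length trend removed, 14 of 29 large and 8 of 17 small subunit genes with a counterpart were lower, beside 34.6% of all genes. Of those without, 2 of 19 large and 3 of 10 small subunit genes were lower. The smaller share lower of the large subunit genes with a counterpart therefore did not hold in that fit. The difference between these classes was not tested.

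As a whole, the transcripts of the 78 genes took 0.739% ± 0.011 (SD, n = 3) of all TPM with K382Q and 0.745% ± 0.007 with K382R, and these ranges overlapped. The summed large subunit was at 4900, 5006 and 5033 TPM against 4989, 4925 and 4870 TPM. The summed small subunit was at 2373, 2428 and 2445 TPM against 2532, 2515 and 2505 TPM, so on TPM each K382Q library lay below each K382R library. Divided by the median-ratio factors the small subunit sums were 2457, 2575 and 2578 against 2399, 2379 and 2358, and the large subunit sums 5073, 5308 and 5307 against 4727, 4658 and 4584, so on that scale each K382Q library lay above each K382R library for both. The mean TPM of large over small subunit genes was 1.222, 1.220 and 1.218 in K382Q- and 1.166, 1.159 and 1.150 in K382R-overexpressing cells. This ratio is taken within a library and does not depend on the scaling factor of that library. It did not overlap between the mutants and is given as a description. Mrps18a and Mrps30 lie in the large subunit by structure, and with both moved there and Mrps36 left out the ratio was 1.224 to 1.232 against 1.159 to 1.170.

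The 2 mitochondrial rRNAs, around which these proteins assemble, stood apart from them. mt-Rnr1, the small subunit rRNA, was at 555.6, 536.0 and 503.3 TPM with K382Q and at 358.9, 367.8 and 357.8 TPM with K382R. mt-Rnr2, the large subunit rRNA, was at 436.0, 420.3 and 391.0 TPM against 272.5, 267.8 and 268.5 TPM. The log2 fold changes were 0.55 ± 0.04 and 0.62 ± 0.04 (SE), above the highest value of any member, 0.33 for Mrpl24. All 13 mitochondrial mRNAs were higher as well, with a median of 0.66. Because rRNA is not captured evenly by every library protocol, these levels compare the mutants with each other and not rRNA with mRNA.

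**Figure D5:**
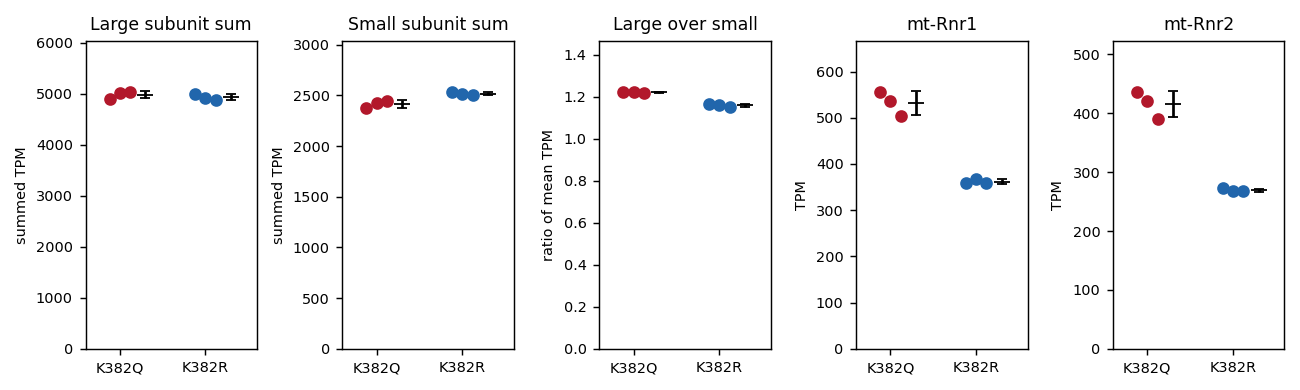
From left to right, the summed TPM of large and of small subunit genes, the ratio of their mean TPM, and the TPM of the mitochondrial rRNAs mt-Rnr1 and mt-Rnr2, 1 point per library with mean and SD beside the points (n = 3 per mutant). The subunit sums differ little, whereas mt-Rnr1 averages 531.6 TPM against 361.5 TPM and mt-Rnr2 415.8 TPM against 269.6 TPM.

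Genes that work with the mitoribosome were read from lists made from general knowledge, and their counts on TPM stand beside 11.1% higher and 36.9% lower of all genes tested and a median of -0.14. Of 5 further ribosomal proteins with other names, Aurkaip1 rose (0.14) and Ptcd3, which sits on the small subunit, fell (-0.27). Of these 5, 3 were higher and 1 lower after median-ratio scaling, and likewise after quantile normalization. Of all genes, 19.9% were higher and 20.4% lower after median-ratio scaling, and 19.1% and 21% after quantile normalization. Aurkaip1 was not called with the length trend removed (0.05, adjusted p = 0.268, limma). Of 19 translation factors 0 rose and 3 fell (15.8%) on TPM, with a median of -0.05. After median-ratio scaling and after quantile normalization 5 of the 19 were higher and 1 lower, beside the shares of all genes just given for these scales. Gfm1, the elongation factor that moves the ribosome along, fell from 92.28 to 96.36 TPM in K382R- to 75.06 to 79.36 TPM in K382Q-overexpressing cells, a log2 fold change of -0.28. Tufm (-0.14), which brings tRNA to the ribosome, and Tsfm (-0.15), the exchange factor that recycles it, fell on TPM and were at 0.01 and 0.00 after median-ratio scaling.

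Of 27 genes for ribosome assembly and rRNA modification 0 rose and 7 fell (25.9%) on TPM, with a median of -0.08, a smaller share lower than among all genes and a median above theirs. The largest falls were those of Rcc1l, at 20.46, 20.62 and 21.45 TPM against 28.02, 28.96 and 27.52 TPM, and of Noa1, at 29.71, 27.46 and 26.38 TPM against 39.17, 38.88 and 34.43 TPM. Both code for factors that help ribosome assembly, with log2 fold changes of -0.43 and -0.42, and neither overlapped between the mutants. After median-ratio scaling 5 genes of this list were higher and 3 lower, beside 19.9% and 20.4% of all genes.

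Of 19 mitochondrial aminoacyl-tRNA synthetases 3 rose and 5 fell on TPM, 3 and 2 on FPKM, 5 and 1 after median-ratio scaling and 5 and 2 after quantile normalization. Of all genes, 11.1% were higher and 36.9% lower on TPM, and 17.3% and 30.2% on FPKM. After median-ratio scaling these shares were 19.9% and 20.4%, and after quantile normalization 19.1% and 21%. The list also held 3 subunits of the amidotransferase that completes the charging of a tRNA, of which Gatb rose (0.20), Gatc fell (-0.15) and Qrsl1 (-0.12) was not called. Among the synthetases Fars2 (0.34) rose most, and Kars (-0.48) and Sars2 (-0.35) fell most. Kars and Gars, the latter at the highest level of the list, serve the cytosol too. Of 11 genes for mitochondrial DNA transcription and replication 0 rose and 5 fell (45.5%) on TPM, led by Tfb2m (-0.29) and Polg (-0.23). The median of this list, -0.08, was above that of all genes, and after median-ratio scaling 0 were called in either direction.

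Of 9 regulators of mitochondrial gene expression 1 rose and 2 fell on TPM. Ppargc1a, the coactivator of mitochondrial biogenesis, was at 5.00, 4.57 and 4.28 TPM with K382Q and at 1.93, 1.88 and 1.53 TPM with K382R, a log2 fold change of 1.17 ± 0.12 (SE, adjusted p = 0.000163, limma). Myc fell from 96.30, 102.5 and 105.1 TPM in K382R- to 70.12, 71.56 and 66.84 TPM in K382Q-overexpressing cells, a log2 fold change of -0.54. Pprc1, a coactivator related to Ppargc1a, had a log2 fold change of -0.47. Nrf1 (0.07), Gabpa (0.00), Yy1 (0.00) and Esrra (-0.07), the transcription factors most often tied to these genes, were not called on TPM. Nrf1 was called higher on FPKM (0.15), after median-ratio scaling (0.22) and after quantile normalization (0.23), and Yy1 after quantile normalization (0.16). Of 7 protease and import partners 2 rose and 3 fell on TPM. Lonp1, the matrix protease, rose from 414.9 to 425.2 TPM to 614.5 to 634.9 TPM (0.58), and Afg3l2 rose (0.12). Clpp (-0.25), Hspd1 (-0.19) and Spg7 (-0.16) fell on TPM, and none of these 3 was called after median-ratio scaling. There the list had 3 higher and 0 lower, beside 19.9% and 20.4% of all genes.

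The stretches before the start sites are shown for 5 members, namely the 3 firmest rises, the largest fall and Mrpl12 as a high member that was level on TPM (0.15 after median-ratio scaling, adjusted p = 0.0208, limma). They were read from GRCm39 at GENCODE M39 start sites, 5′ to 3′ on the strand of the gene, and hold only bases outside annotated exons. Capitals mark letters of NRF1 (GCGCANGCG followed by a further C), ETS (CCGGAAGT), YY1 (AAGATGGC), ERR (AAGGTCA) or ZNF143 (ACTACAANT), each searched on both strands.
Mrpl24 (chr3:87826711-87826797, plus strand): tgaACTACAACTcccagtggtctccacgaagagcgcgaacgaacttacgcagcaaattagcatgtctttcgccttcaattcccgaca
Mrpl42 (chr10:95337824-95337973, minus strand): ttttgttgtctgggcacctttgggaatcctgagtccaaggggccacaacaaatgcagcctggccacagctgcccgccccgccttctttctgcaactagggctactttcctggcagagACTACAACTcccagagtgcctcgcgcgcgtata
Mrpl45 (chr11:97206392-97206541, plus strand): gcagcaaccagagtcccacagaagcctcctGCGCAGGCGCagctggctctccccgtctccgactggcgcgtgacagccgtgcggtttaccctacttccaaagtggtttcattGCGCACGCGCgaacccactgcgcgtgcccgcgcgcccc
Mrpl11 (chr19:5012013-5012162, plus strand): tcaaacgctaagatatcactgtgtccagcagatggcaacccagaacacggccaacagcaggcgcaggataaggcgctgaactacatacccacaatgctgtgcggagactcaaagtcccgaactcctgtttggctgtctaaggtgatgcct
Mrpl12 (chr11:120375280-120375429, plus strand): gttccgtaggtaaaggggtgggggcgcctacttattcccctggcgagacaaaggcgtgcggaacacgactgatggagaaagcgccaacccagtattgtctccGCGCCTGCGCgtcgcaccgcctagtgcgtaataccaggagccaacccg
The stretch of Mrpl45 holds the NRF1 letters at 2 places, that of Mrpl12 at 1, and that of Mrpl11 none of the 5 motifs.

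Over windows from 250 bases before to 50 bases after the start site, the NRF1 letters were in 12 of 78 members (15.4%) and in 9.52% of 12170 protein-coding genes. The ETS letters were in 11 members (14.1%) beside 6.98%, the YY1 letters in 6 (7.69%) beside 3.62%, and the ERR letters in 4 (5.13%) beside 3.64%. At least 1 of these 4 was in 30 members (38.5%) beside 21.8% of protein-coding genes. The box CCAAT was in 27 members (34.6%), a smaller share than the 40.3% of protein-coding genes. The ZNF143 letters were searched for only after the stretches of Mrpl24 and Mrpl42 had been read, so these 2 hits are no finding. They were in 5 members, all of the large subunit (Mrpl19, Mrpl24, Mrpl34, Mrpl42 and Mrpl50), 6.41% beside 2.88% of protein-coding genes. This share still counts Mrpl24 and Mrpl42, which led to the search, so it is raised by that choice and is no finding either. A match is a match of letters, and binding was not measured in these libraries.

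The kit does not mark the strand of the RNA, and 31 members overlap another tested gene, 27 of them on the opposite strand. Mrps11 and Mrpl46 (-0.10, not called) share 413 bp head to head on chromosome 7. Mrpl24 shares 1072 bp with Rrnad1, which was at 16.9 TPM and 0.02, and Mrpl14 shares 584 bp with Tmem63b, at 47.4 TPM and -0.27. Mrps6 lies on the same strand as Slc5a3 over 29152 bp. Reads of such partners cannot be told apart within the shared bases. Of the pseudogenes left out, Mrpl48-ps had the highest level relative to its parent, 13.1% of the TPM of Mrpl48.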

How the data were processed

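The authors trimmed reads with TrimGalore 0.6.7, aligned them to GRCm39 with HISAT2 2.2.1, sorted alignments (SAMtools 1.14) and obtained gene abundances with StringTie 2.2.1. The annotation release is not given in the sources used here. Libraries were made with a NEBNext Ultra RNA kit. The deposited coverage is the mean read depth per base, a signal without normalization. The deposited FPKM is scaled to aligned bases, and the deposited TPM to the same total in each library, so that TPM gives shares. Counts were not analysed here.

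Coverage divided by FPKM gave the aligned bases. Values of repeated gene IDs were summed. The mutants were compared in limma 3.58.1 (R 4.3.3), using log2(TPM + 0.5), a variance trend over intensity and Benjamini-Hochberg adjustment over 15426 genes. Fold changes on this scale understate those of low genes. A DEG had an adjusted p below 0.05 and a fold change over 2, the thresholds of the study. The test was also tried on simulated data, and no result of that trial is used here. The p-values measure the spread between 3 libraries per mutant, and whether these came from separate stable lines is not given in the sources used here. No interval from counts could be given. GENCODE M39 held 99.0% of the gene IDs and gave transcript lengths, GC and start sites. Python 3.11.15, pandas 2.3.3, numpy 2.4.6 and matplotlib 3.10.9 were used.

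Named members were those called with the 5 largest rises and falls of each subunit, the 3 highest and 2 lowest of each, and some with a role of their own. Genes of other lists were named for the 2 largest rises and falls, as a DEG or for the highest level, and a few others were chosen after their values were seen. The result of 1 gene of these lists is not reported here. The members and lists were chosen with earlier results of these data known. The scaled subunit sums, the count of synthetases without amidotransferase subunits and the motifs were chosen after the data were seen, and the ZNF143 letters after the printed stretches had been read. Alternatives were other pseudocounts, filters and scalings, a fit without the intensity trend, array weights, a block for the replicate number, removal of length or GC trends, subunits by structure and each library left out in turn.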

Additional observations from a re-analysis of the deposited data

How the results depend on the processing

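Large subunit genes were 5 higher and 7 lower with a median of -0.02, and small subunit genes 1 higher and 7 lower with a median of -0.07. On FPKM the large subunit gave 14 higher, 2 lower and a median of 0.066, and the small subunit 5, 4 and 0.015. Median-ratio scaling gave 25, 1 and 0.134 for the large and 8, 1 and 0.082 for the small subunit, and quantile normalization 21, 1 and 0.125, and 8, 2 and 0.089. Without an intensity trend the large subunit had 3 higher and 4 lower, and without a filter on low values 4 lower. Array weights gave 2 small subunit genes higher. Of all 78 members, 5.13% were higher and 12.8% lower without the trend, beside 10.2% and 35.1% of all genes. Without the filter these were 6.41% and 12.8% beside 4.86% and 17.3%, and with array weights 8.97% and 17.95% beside 11.3% and 37.6%. Removal of a length trend gave 16 large subunit genes lower, and 3 higher and 11 lower in the small subunit, so that 32.7% of large and 37.9% of small subunit genes were lower beside 34.6% of all genes. Removal of a GC trend moved the small subunit median to -0.051, with or without the replicate block. Leaving out 1 library at a time gave 3 to 9 large subunit genes higher and 4 to 6 lower, 0 to 2 small subunit genes higher and 6 to 7 lower, a large subunit median of -0.03 to 0.00, and a small subunit median of -0.066 to -0.041. In these fits 3.85% to 14.1% of the members were higher and 12.8% to 15.4% lower, beside 9.24% to 9.94% and 32.4% to 36.45% of all genes. Without K382Q replicate 1 there were 9 large and 2 small subunit genes higher, 14.1% of the members beside 9.94% of all genes. Without K382Q replicate 3 there were 3 and 0, 3.85% beside 9.24%. Small subunit genes higher were also 0 without K382Q replicate 2, and large subunit genes lower were 4 without K382Q replicate 3, K382R replicate 1 or K382R replicate 2. Among all 78 members, 4 that fell on TPM were above 0 and not called after median-ratio scaling, Mrps18b (0.0038), Mrpl2 (0.01), Mrpl9 (0.01) and Mrps10 (0.04). Another 6 that were below 0 and not called on TPM were called higher elsewhere. They were Mrpl13 (0.12), Mrpl20, Mrpl28, Mrpl39 and Mrpl44 (0.13) after median-ratio scaling and Mrpl23, Mrpl39 and Mrpl44 (0.15) after quantile normalization. With the length trend removed, Mrpl13 (-0.10), Mrpl20 (-0.17), Mrpl23 (-0.14) and Mrpl28 (-0.14) were instead called lower. So was Mrpl33 (-0.10), which was called higher on FPKM, after median-ratio scaling and after quantile normalization. The cause of these changes was not tested. The median of all genes moved from -0.14 on TPM to 0.00 after median-ratio scaling. No member was a DEG under any alternative, a fold change over 1.5 included. Of the members named by rule, 578 values kept their side of the threshold, 49 of them with a turned sign in a gene called in neither fit, while 46 lost the call, 18 gained it and 4 changed sign with a call.

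Libraries with the same replicate number showed no shared deviation (correlations of -0.02, 0.05 and 0.02 over 15426 genes), and pairs with different numbers gave -0.06 to 0.04. The labels do not say whether libraries with the same number were handled together, and these values cannot settle it. With the replicate number as a block, 7 members were higher (8.97%) and 12 lower (15.4%), beside 10.4% and 34.9% of all genes, with 6 and 5 in the large and 1 and 7 in the small subunit. Mrps35 (adjusted p = 0.058, limma), Mrpl22 (0.0539) and Mrpl9 (0.0512) then lost their call. Mrpl51 (adjusted p = 0.0423, limma) and Mrps18c (0.0401) were then called higher, so the small subunit gene called higher was Mrps18c in place of Mrps35.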
